A study of Mus musculus with 14 samples.

Results

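Promoter capture Hi-C (PCHi-C) enriches a Hi-C library for ligation products that hold a promoter fragment, so each measurement links a captured promoter fragment, the bait, to another HindIII fragment. Cranial neural crest cells (CNCCs) were taken at E10.5 (embryonic day) from facial prominences of the mouse, and promoter contacts in the frontonasal process (FNP) were set against those in the maxillary process (Mx). The comparison rested on 2 FNP and 2 Mx libraries of the 14 in the series. The 2 mandibular (Md) and 2 second pharyngeal arch (PA2) libraries of the same day and genotype lent their spread to the tests and showed where else a contact was listed. All 8 libraries came from mouse embryos of genotype *Wnt1::Cre;ROSA-RFP* and are labelled wild type (WT). In these embryos the *Wnt1* promoter drives Cre in crest precursors at the dorsal neural tube, Cre switches on a red fluorescent reporter, and reporter-positive cells were sorted after microdissection, so descendants of the *Wnt1* lineage other than mesenchyme, such as glia, could also be in the gate. The study's methods describe the 2 replicates of each PCHi-C group as biologically independent, while the labels do not give their embryos or litters, and p-values measure the spread between these libraries.

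Cranial neural crest leaves the dorsal neural tube and fills the facial prominences, where it forms most of the face skeleton. The FNP gives rise to the forehead, nose and the middle of the upper lip, and its mesenchyme is known for the aristaless-like factors *Alx1* and *Alx4*. The Mx, the upper part of the first arch, gives rise to the cheek, upper jaw and secondary palate and is known for *Dlx1*, *Dlx2*, *Lhx8* and *Barx1*. Genes of this kind lie among enhancers spread over long stretches of DNA, and loops between promoter and enhancer bring both ends together.

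Each deposited list gave the contacts whose CHiCAGO score was at least 5, a score that rises as the reads of a pair exceed the background fitted to its own library at that distance. Contacts between chromosomes were left out, a pair missing from a list was set to 0, and a bait's total was the sum of the scores of its listed pairs. A pair was called FNP-side when both FNP libraries and neither Mx library listed it, and Mx-side in the opposite case. Read counts were not given, so the depth of a library is unknown and a 0 is only a score under 5. In sorted tissue, a contact present in fewer cells and a contact that is weaker in each cell cannot be told apart.

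The 4 libraries listed 139707 and 161941 (FNP) and 151455 and 157277 (Mx) same-chromosome pairs, with 18560 to 18977 baits in use of the 22091 seen in the E10.5 lists. FNP replicate 2 held the most pairs beyond 2 Mb (16.4%) and FNP replicate 1 the fewest (10.0%), with both Mx libraries between them (12.1% and 14.3%). None of 7 library measures, among them the number of pairs, median distance and median score, separated the sides (two-sided exact permutation test, p = 1 for each, smallest possible p = 0.333). The FNP replicates shared 29.6% of the pairs that either listed and the Mx replicates 29.9%, while an FNP and an Mx library shared 29.0% to 30.3%, so replicates of a prominence were no more alike than libraries of different prominences. Md replicate 1 stood apart in that 46.5% of its listed pairs joined different chromosomes, against 3.22% to 3.86% in the 4 FNP and Mx libraries, and the name of its list marks it as merged; without it the tests below again called 0 pairs and 0 baits.

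Genome sequence at the ends of the contacted fragments is shown for the contacts on which the following sections turn, read from the reference genome GRCm38 (mm10) on the forward strand. Capitals mark the HindIII recognition site, which begins each fragment, and every one of the 46287 fragment starts that were checked lay at such a site. The first pair brackets the fragment in an intron of *Pax3* that the *Pax3* bait contacted in Mx (chr1:78138591-78138650 and chr1:78140152-78140211), the next is the lower end of the strongest FNP-side fragment of *Alx1* (chr10:102865703-102865762), and the last is the lower end of the strongest Mx-side fragment of *Lhx8* (chr3:154555160-154555219).
Pax3 fragment, lower end: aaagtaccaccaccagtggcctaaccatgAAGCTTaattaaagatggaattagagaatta
Pax3 fragment, upper end: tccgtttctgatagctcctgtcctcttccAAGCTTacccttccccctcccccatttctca
Alx1 fragment, lower end: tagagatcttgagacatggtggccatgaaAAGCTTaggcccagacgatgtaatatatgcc
Lhx8 fragment, lower end: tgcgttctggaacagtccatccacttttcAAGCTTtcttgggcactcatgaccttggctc
For the long-range contacts of *Sox2*, a factor of neural progenitors, and of *Mab21l1*, the shortest Mx-side fragments are short enough to print whole (chr3:35089417-35089607 and chr3:55379154-55379429), with capitals marking what the cut leaves of the site at each end.
Sox2 distal fragment: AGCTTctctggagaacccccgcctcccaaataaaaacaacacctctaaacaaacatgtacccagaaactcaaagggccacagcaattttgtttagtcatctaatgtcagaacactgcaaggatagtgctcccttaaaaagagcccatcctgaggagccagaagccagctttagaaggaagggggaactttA
Mab21l1 distal fragment: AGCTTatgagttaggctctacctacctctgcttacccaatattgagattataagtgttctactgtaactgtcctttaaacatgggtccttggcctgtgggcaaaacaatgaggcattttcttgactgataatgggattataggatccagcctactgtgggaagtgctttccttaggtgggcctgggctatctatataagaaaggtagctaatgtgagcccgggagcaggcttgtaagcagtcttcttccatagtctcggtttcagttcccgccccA
The *Sox2* fragment scored 6.5 and 8.7 in Mx and the *Mab21l1* fragment 6.7 and 5.0, and neither was listed in FNP, which follows from picking Mx-side fragments. The *Sox2* fragments 441 to 469 kb from the bait, this one included, summed to 112 and 113 in FNP and 150 and 137 in Mx. They summed to 126 to 154 in Md and PA2. The *Mab21l1* fragments 400 to 417 kb away, with the printed one, summed to 14.3 and 11.2 in FNP and 59.9 and 54.6 in Mx.

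Of 357333 pairs listed in at least 1 of the 4 libraries, 225311 (63.1%) stood in 1 library alone and 43787 (12.3%) in all 4. FNP-side pairs numbered 8828 (2.47% of the 357333) over 5446 baits, and Mx-side pairs 10040 (2.81%) over 5825 baits. Pairs listed only in 1 FNP and 1 Mx library were about as many for each combination. They numbered 11082 (3.10%) for FNP replicate 2 with Mx replicate 2 and 9212 (2.58%) for FNP replicate 2 with Mx replicate 1. For FNP replicate 1 they numbered 7923 (2.22%) with Mx replicate 1 and 7699 (2.15%) with Mx replicate 2. FNP-side and Mx-side pairs were alike in reach, with median distances from the bait of 361 kb and 360 kb, against 231 kb for the pairs shared by all 4 libraries. The median of the lower of the 2 scores was 5.58 for FNP-side and 5.57 for Mx-side pairs, just above the limit of 5. In shared pairs the median of the lowest score was 6.58. The listing rule itself bears on this gap, since a side-specific pair has to stay under 5 in 2 libraries and a shared pair has to reach 5 in all 4. The other end was itself a bait in 14.4% of FNP-side, 15.0% of Mx-side and 20.1% of shared pairs.

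The contacted fragments differed little between the sides in make-up. The median length of the other end was 3012 bp for FNP-side and 2942 bp for Mx-side pairs, against 3215 bp for shared pairs. Its median GC content was 44.4% for FNP-side, 44.2% for Mx-side and 45.4% for shared pairs. A same-side neighbour of the same bait lay within 25 kb of 20.8% of FNP-side and 24.2% of Mx-side pairs, and an opposite-side neighbour within 25 kb of 14.6% and 13.3%.

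Most contacts of either side were also listed in at least 1 Md or PA2 library. A listing in none of those 4 libraries was found for 2663 FNP-side pairs (30.2%) and 2737 Mx-side pairs (27.3%), against 490 shared pairs (1.12%). Mx-side pairs stood in 34.6% and 42.0% of cases in the Md libraries, FNP-side pairs in 28.3% and 38.6%. In PA2 the shares were closer, at 33.3% and 35.7% for Mx-side and 32.0% and 33.6% for FNP-side pairs.

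No pair and no bait passed the test of FNP against Mx. Over 104587 pairs that at least 4 of the 8 libraries listed, limma on the asinh of the score called 0 at a Benjamini-Hochberg adjusted p under 0.05, with 5720 (5.47%) at an unadjusted p under 0.05. The filter kept 3516 of the FNP-side pairs (39.8%) and 4477 of the Mx-side pairs (44.6%), and a kept pair had by construction to differ between the sides. Over 20405 bait totals, limma on log2(total + 5) called 0, with 987 (4.84%) at an unadjusted p under 0.05. Fitting the 4 FNP and Mx libraries alone called 16071 pairs, of which 99.2% were side-specific by the listing rule, while summing scores in 25-kb windows called 1, at *Pax3*.

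The baits described below are therefore given as values in each library. Of the 20405 bait totals, 3087 (15.1%) were higher in both FNP libraries than in either Mx library and 3629 (17.8%) were higher in both Mx libraries, and 13689 overlapped. Counts of genes with sides apart are to be read against these 2 percentages. Unless another value is given, the adjusted p of each named bait was 0.973 or higher (limma).

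**Figure D1:**
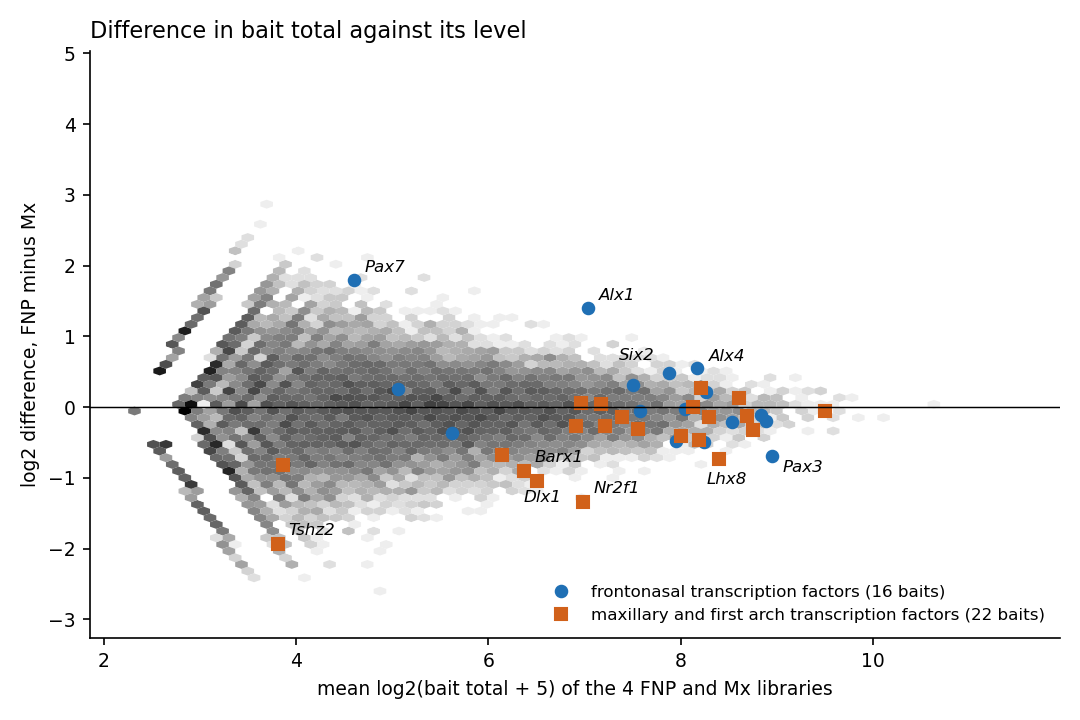
Difference of the bait total (FNP minus Mx, log2 of total + 5) against its mean log2 level in the 4 FNP and Mx libraries, with the 20405 tested baits as grey cells that are darker where more baits lie. Circles are the 16 baits of frontonasal and squares the 22 baits of maxillary and first arch transcription factors; *Alx1* and *Pax7* lie above 1, while *Dlx1*, *Nr2f1* and *Tshz2* lie below −1, and no bait passed the adjusted threshold.

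Among frontonasal transcription factors, 16 baits were tested, of which 5 were higher in both FNP libraries, 5 were higher in both Mx libraries and 6 overlapped. Their median difference was −0.04 on the log2 scale, against −0.03 over all baits. The list had 42 FNP-side and 38 Mx-side pairs, 4.90% and 4.43% of its 858 listed pairs. Both shares were above those over all baits, 2.47% and 2.81%. *Alx1*, a homeodomain factor of frontonasal mesenchyme, was among the baits higher in both FNP libraries: its bait (chr10:103026355-103030016) totalled 163 and 267 in FNP, 68.7 and 84.5 in Mx, 63.3 and 96.2 in Md and 18.4 and 22.9 in PA2. The FNP libraries thus held more *Alx1* contact score than any of the other 6 (FNP minus Mx 1.39 ± 0.39 SE on the log2 scale, n = 2 libraries a side; unadjusted p = 0.0026, limma). *Alx4*, which acts with *Alx1* in the upper face, totalled 414 and 287 in FNP and 265 and 203 in Mx at its bait (chr2:93637427-93643377), a difference of 0.56 ± 0.38, with 151 and 163 in Md and 41.2 and 109 in PA2.

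The FNP contacts of *Alx1* fell into a few places. A stretch 145 to 162 kb below the bait, between protein-coding genes, summed to 63.2 and 84.1 in FNP, 22.7 and 38.7 in Mx, 17.6 and 14.1 in Md and 0 and 5.1 in PA2. A second stretch 86 to 89 kb above it, in an intron of *Lrriq1*, summed to 43.0 and 46.0 in FNP and 8.32 and 14.48 in Mx, and to 0 in all 4 Md and PA2 libraries. *Alx1* had 4 FNP-side pairs and no Mx-side pair, and none of the 4 was listed in Md or PA2. The fragment whose lower end is printed above scored 12.3 and 11.4 in FNP. For *Alx4*, a stretch 13 to 44 kb below the bait summed to 99.3 and 81.9 in FNP, 49.1 and 27.7 in Mx, and at most 13.1 in Md and PA2; 1 of its 5 FNP-side pairs was listed in Md or PA2. These stretches were chosen after their values were seen.

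*Six2*, a homeobox factor of frontonasal mesenchyme, totalled 274 and 273 in FNP and 228 and 165 in Mx, with 5 FNP-side pairs and no Mx-side pair. Its totals in PA2 were 252 and 244, close to those of FNP. *Pax7*, a paired-box factor of the early crest, totalled 18.8 and 80.9 in FNP and 11.2 and 5.45 in Mx, and most of its difference came from FNP replicate 2 (1.80 ± 0.76; unadjusted p = 0.032, limma). *Tfap2b*, an AP-2 factor of crest and limb, overlapped between the sides, with 255 and 418 in FNP and 233 and 339 in Mx. It still had 8 FNP-side pairs, 738 to 1009 kb away, 5 of them in *Pkhd1*, and 6 of the 8 were listed in none of the Md and PA2 libraries. It had 1 Mx-side pair, and further along *Pkhd1* the order was the opposite: 1287 to 1310 kb away it summed to 27.9 and 39.1 in FNP and 49.1 and 48.4 in Mx, and 1229 to 1262 kb away the sides overlapped, with 69.6 and 118 in FNP and 99.9 and 125 in Mx.

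*Pax3*, the other paired-box factor of the list and a regulator of early crest and muscle precursors, was 1 of the 5 baits of the list that were higher in both Mx libraries. Its bait (chr1:78196361-78197158) totalled 389 and 380 in FNP, 647 and 600 in Mx, 588 and 533 in Md and 588 and 562 in PA2. The FNP libraries were the lowest of the 8 and the Mx libraries the highest (FNP minus Mx −0.69 ± 0.22; unadjusted p = 0.0075, limma). *Pax3* had 16 Mx-side pairs and 3 FNP-side pairs, and 14 of the 16 were listed in Md or PA2.

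The *Pax3* difference was densest within the gene itself. In 8 fragments 51 to 63 kb from the bait (chr1:78132247-78146549), intronic except for 1 that holds an exon, the scores summed to 0 and 0 in FNP, 56.8 and 48.3 in Mx, 54.0 and 52.1 in Md and 99.6 and 83.3 in PA2. The fragment bracketed by the sequences above scored 13.9 and 11.1 in Mx, 13.6 and 10.6 in Md and 21.3 and 16.6 in PA2 and was listed in neither FNP library. It had the smallest p of any pair tested (asinh difference −3.22 ± 0.25; adjusted p = 0.238, limma). Summed in 25-kb windows, the window that holds it totalled 0 and 0 in FNP and 63 and 48 in Mx and was the only one of 65362 to pass (asinh difference −4.71; adjusted p = 0.00948, limma), and the call was lost when either replicate of FNP or Mx was left out (adjusted p 0.112 to 0.244), when Md replicate 1 was left out (0.155) or when the windows were shifted (0.106). Elsewhere along the locus the order differed: 214 to 270 kb on the far side of the bait the FNP sums were 154 and 156 and the Mx sums 125 and 127, and 160 to 175 kb away FNP held 18.6 and 18.1, Mx 50.4 and 49.1, Md 52 and 44.4 and PA2 17.7 and 12.9.

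**Figure D2:**
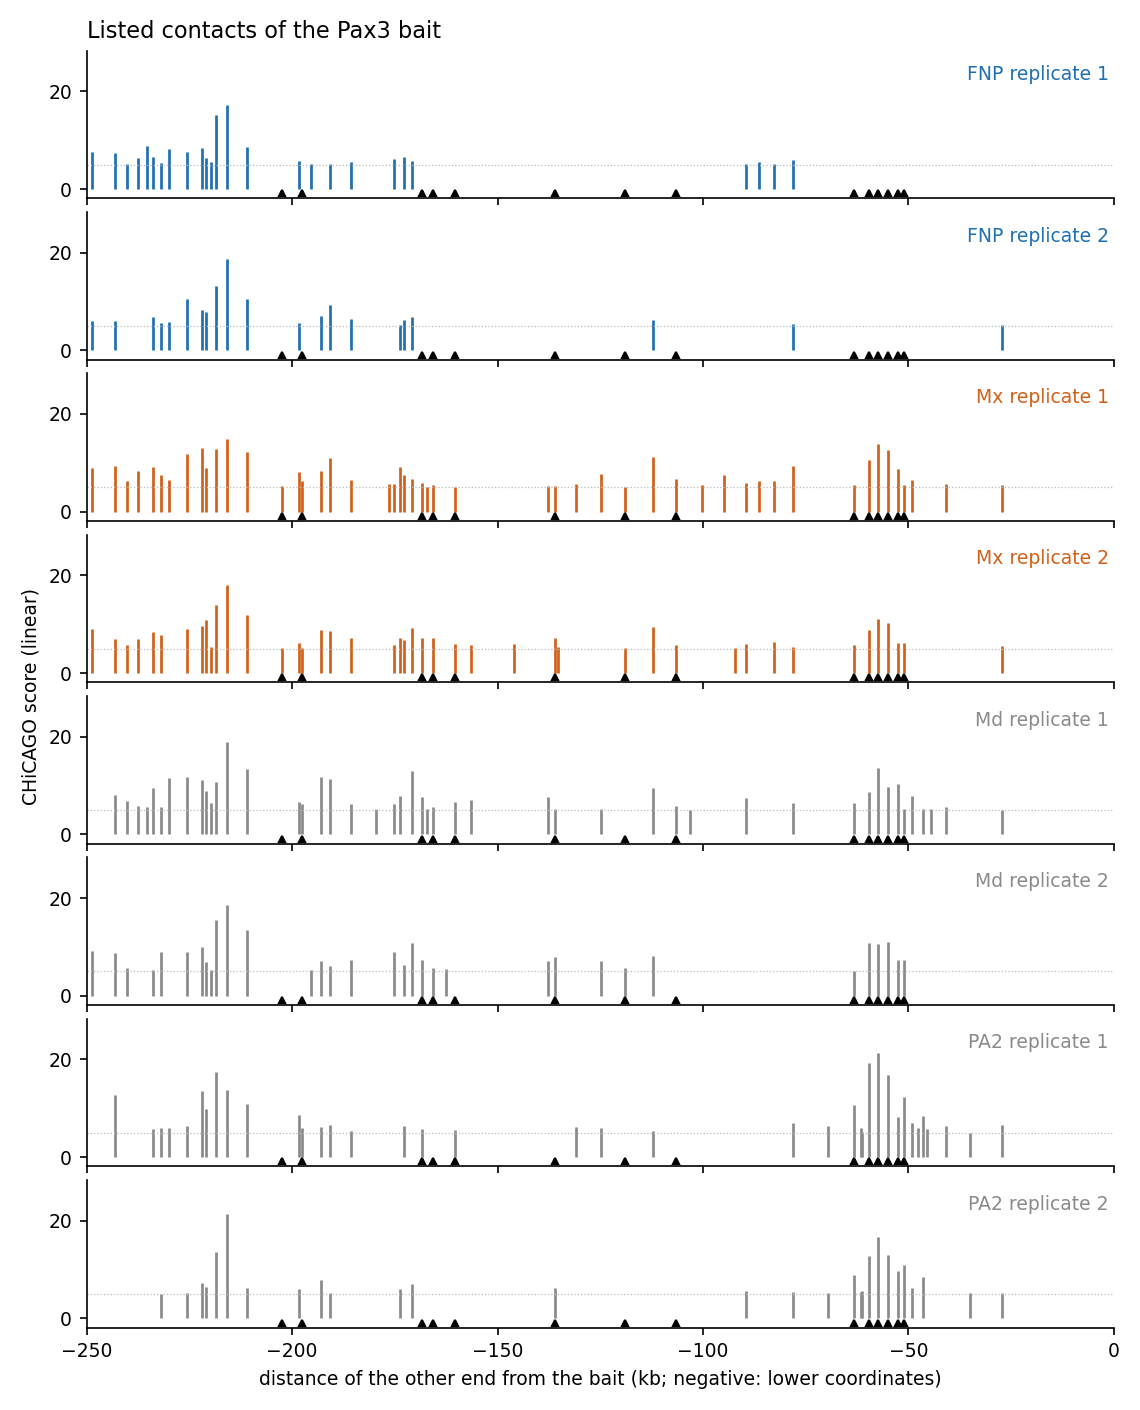
CHiCAGO score of each listed fragment of the *Pax3* bait against its distance in kb (negative: lower coordinates), over the side of the bait that holds most Mx-side pairs, with a panel for each of the 8 libraries, a dotted line at the listing limit of 5 and triangles at Mx-side fragments. Between 51 and 63 kb from the bait, bars stand in the 6 Mx, Md and PA2 libraries and in neither FNP library.

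Maxillary and first arch transcription factors, a list chosen with earlier results of these data known, lay toward Mx in their median. Of 22 baits tested, 10 were higher in both Mx libraries, 12 overlapped and 0 were higher in both FNP libraries. Their median was −0.29 against −0.03 over all baits, and neural progenitor genes had a median of −0.29 too. Of the 22 baits, 5 had an unadjusted p under 0.05 (limma) and none passed the adjusted threshold. The list had 65 Mx-side and 33 FNP-side pairs, 6.21% and 3.15% of its 1047 listed pairs. Both shares were above those over all baits, 2.81% and 2.47%. Of the 65, 16 (24.6%) were listed in no Md or PA2 library, close to the 27.3% over all baits, so most of these contacts were not limited to Mx among the 4 prominences.

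The neighbours *Dlx1* and *Dlx2*, homeobox factors of arch mesenchyme, had 6 Mx-side pairs each. *Dlx1* totalled 57 and 59.1 in FNP and 125 and 126 in Mx, with 0 FNP-side pairs (−1.05 ± 0.34; unadjusted p = 0.0082, limma). Its totals were higher still in PA2, at 239 and 268, and uneven in Md, at 59.1 and 116. *Dlx2* totalled 175 and 113 in FNP and 130 and 144 in Mx, and the sides overlapped (0.04 ± 0.34). Its 3 FNP-side pairs lay 1737 to 3139 kb away, and counting only pairs within 2 Mb its difference was −0.91, in the direction of *Dlx1*. That was the lowest value over 21 settings and the highest was 1.08, so the direction of *Dlx2* depended on the setting. Both baits contacted *Dync1i2* more in Mx: in overlapping stretches there, *Dlx1* summed to 30.2 and 24.5 in FNP and 51.9 and 47.2 in Mx, and *Dlx2* to 5.97 and 5.56 in FNP and 40.2 and 49.6 in Mx. *Dlx2* stood at 37.3 to 58.1 there in Md and PA2. *Lhx8*, a LIM-homeobox factor of oral mesenchyme, totalled 240 and 276 in FNP and 400 and 467 in Mx (−0.74 ± 0.26; unadjusted p = 0.012, limma). Its contacts with a stretch 193 to 270 kb away, over *Cryz* and *Tyw3*, summed to 194 and 174 in FNP, 342 and 384 in Mx, 266 and 324 in Md and 279 and 306 in PA2. The *Lhx8* fragment printed above lies in that stretch, 229 kb from the bait, and scored 13.9 and 11.7 in Mx.

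*Barx1*, a homeobox factor of the molar and stomach mesenchyme, totalled 43.6 and 70.4 in FNP and 110 and 107 in Mx, and all 3 of its Mx-side pairs were also listed in Md or PA2. *Nr2f1*, an orphan nuclear receptor, totalled 35.8 and 152 in FNP and 246 and 157 in Mx, so its FNP replicates differed more from each other than FNP replicate 2 did from Mx replicate 2 (−1.34 ± 0.51; unadjusted p = 0.019, limma). Of its 5 Mx-side pairs, 4 lay in *Mctp1*. *Gsc*, a homeobox factor of first arch skeleton, had 8 Mx-side and 2 FNP-side pairs and totals of 226 and 262 in FNP and 418 and 274 in Mx. *Tshz2*, a zinc-finger factor, had few contacts at all, with 0 and 5.3 in FNP and 18 and 27.7 in Mx. *Lhx6* had 3 Mx-side pairs, 40 to 76 kb away, and 3 FNP-side pairs, 2238 to 2248 kb away at *Lhx2*. The stretch at *Lhx2* summed to 30.9 and 26.5 in FNP, 0 and 0 in Mx, 0 and 16.2 in Md and 16.6 and 56.0 in PA2.

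**Figure D3:**
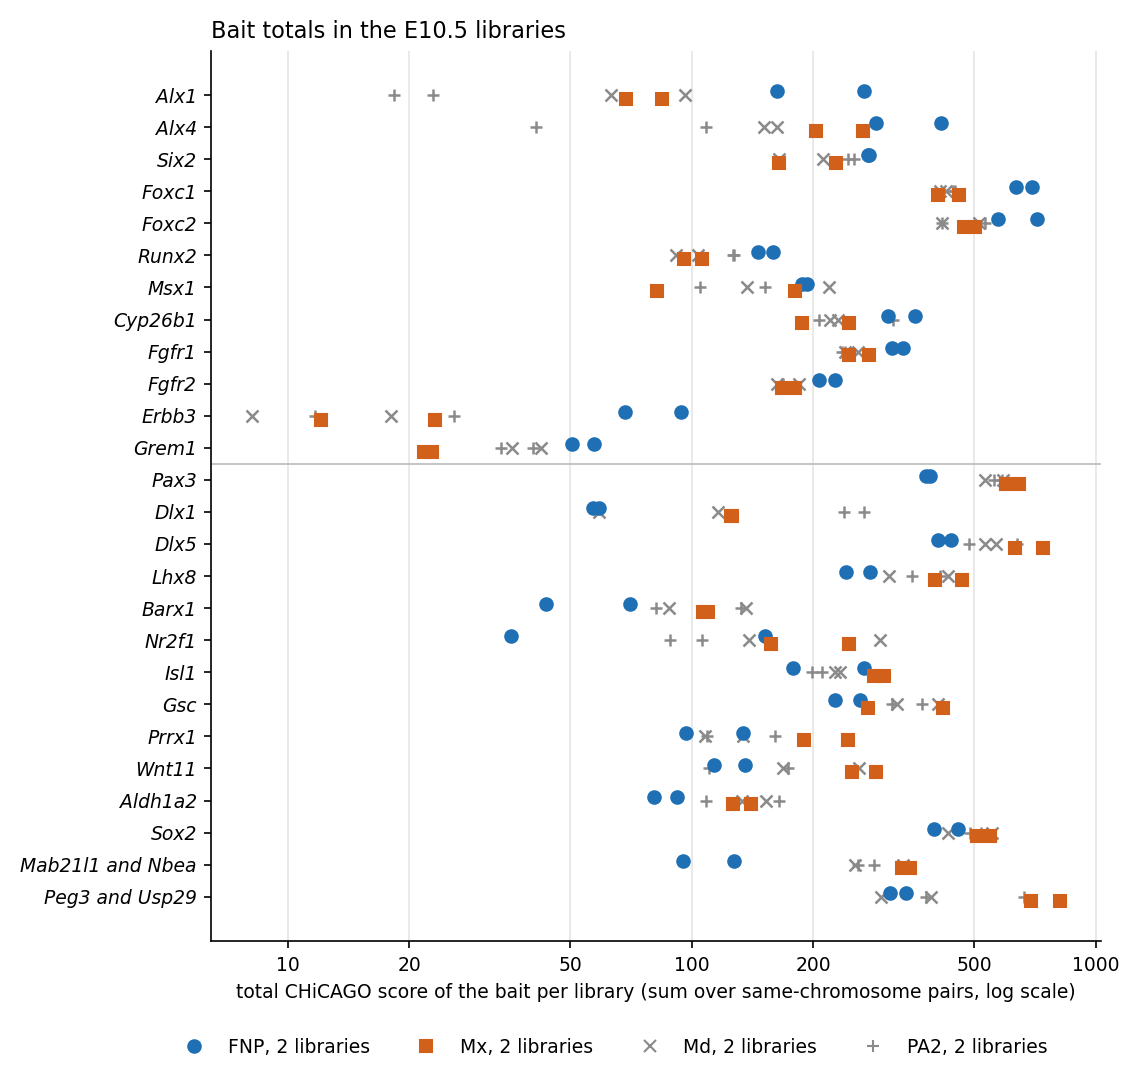
Total CHiCAGO score of named baits on a log scale, with 1 mark for each of the 8 E10.5 libraries: circles for FNP, squares for Mx, crosses for Md and plus signs for PA2. Above the line are baits whose totals were higher in both FNP libraries and below it baits whose totals were higher in both Mx libraries; *Alx1* and *Erbb3* are highest in FNP, and *Dlx1* is highest in PA2.

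Of ventral jaw genes, 10 baits were tested, 3 higher in both FNP libraries, 3 higher in both Mx libraries and 4 overlapping, with a median of 0.12. *Dlx5*, a distal-less factor of the lower jaw, accounted for 11 of the 19 Mx-side pairs of the list and had no FNP-side pair. It totalled 407 and 438 in FNP, 632 and 741 in Mx, 566 and 533 in Md and 486 and 637 in PA2, so each of the other 6 libraries exceeded both FNP libraries (−0.69 ± 0.24; unadjusted p = 0.01, limma). A far stretch 1050 to 1054 kb away in *Dync1i1* summed to 7.0 and 0 in FNP, 29.4 and 30.5 in Mx, 20.2 and 22.8 in Md and 28.1 and 44.9 in PA2, while a neighbouring stretch between −1032 and −1002 kb, on the same side of the bait, summed to 100.5 and 113 in FNP and 106 and 125 in Mx. *Hand2*, which specifies the lower jaw, totalled 376 and 362 in FNP and 453 and 442 in Mx, below its 742 and 912 in Md and 644 and 702 in PA2.

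**Figure D4:**
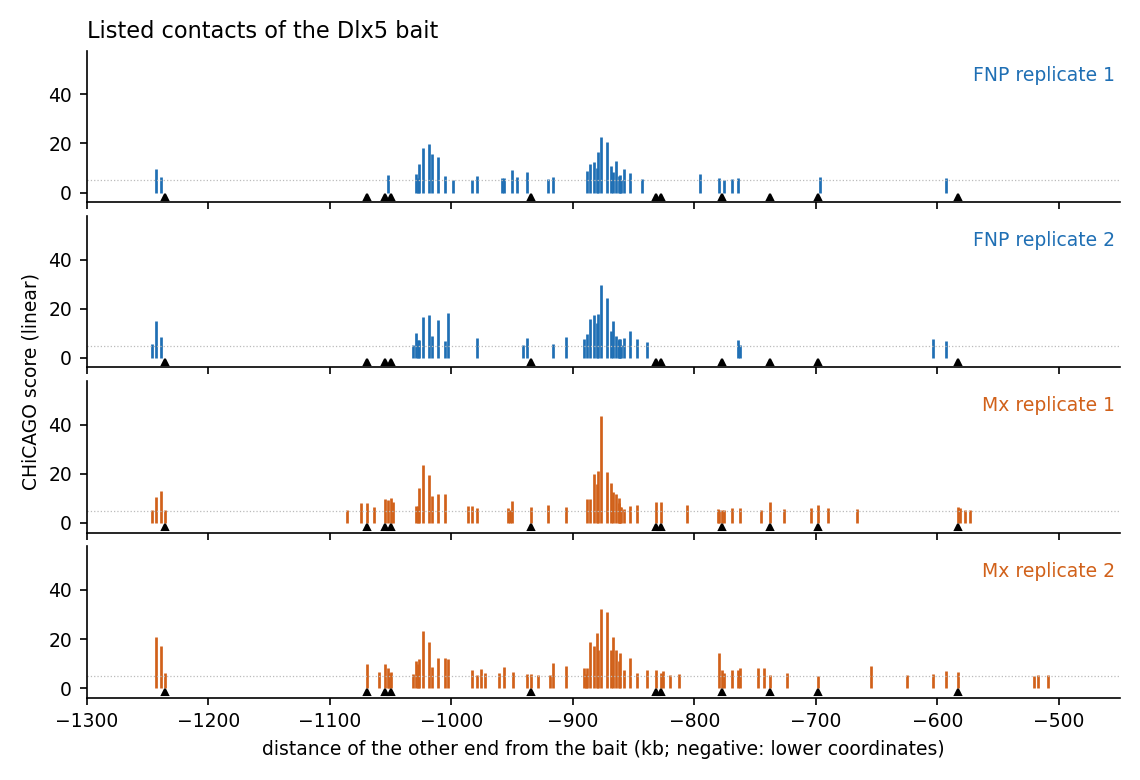
CHiCAGO score of each listed fragment of the *Dlx5* bait against its distance in kb (negative: lower coordinates), with a panel for each FNP and Mx library, a dotted line at the listing limit of 5 and triangles at the 11 Mx-side fragments. The stretch 1050 to 1054 kb below the bait sums to at most 7.0 in FNP and to at least 29.4 in Mx, while the stretch between −1032 and −1002 kb sums to at least 100.5 in all 4 libraries.

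Crest mesenchyme genes had 25 baits tested, 6 higher in both FNP libraries, 4 higher in both Mx libraries and 15 overlapping, with a median of 0.04. *Foxc1*, a forkhead factor of head mesenchyme, totalled 634 and 695 in FNP and 408 and 460 in Mx, and the Mx values bracketed the Md and PA2 values of 412 to 449 (0.61 ± 0.23; unadjusted p = 0.016, limma). Its stretch 479 to 511 kb away in *Gmds* summed to 69.3 and 69.4 in FNP, 41.2 and 39.6 in Mx and 13.2 to 33.4 in Md and PA2. *Runx2*, the regulator of bone formation, totalled 159 and 146 in FNP and 95.8 and 106 in Mx, with 6 FNP-side pairs, each listed in Md or PA2. Its difference of 0.57 turned to −0.45 at a score threshold of 10. A second *Runx2* bait overlapped between the sides, with 56.2 and 22.6 in FNP and 90.8 and 43.9 in Mx. *Prrx1*, a homeobox factor of facial and limb mesenchyme, went the other way with 96.7 and 134 in FNP and 190 and 244 in Mx (−0.89 ± 0.32; unadjusted p = 0.014, limma).

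Of facial signalling genes, 49 baits were tested, with 15 higher in both FNP libraries, 7 higher in both Mx libraries, 27 overlapping and a median of 0.09. The list was split by pathway at the main setting only, and there the FGF genes had the median furthest from 0, at 0.31. Of 11 FGF baits, 6 were higher in both FNP libraries: the receptors *Fgfr1* and *Fgfr2*, the ligand *Fgf18* and the feedback inhibitors *Spry1*, *Spry2* and *Spry4*. The ligand *Fgf8* was higher in both Mx libraries. *Fgfr2*, whose bait is shared with *Ctbp2*, totalled 226 and 207 in FNP and 167 and 180 in Mx, with 7 FNP-side pairs and 1 Mx-side pair. *Fgfr1* totalled 313 and 334 in FNP and 246 and 275 in Mx. Of 8 BMP and TGF-beta baits, 2 were higher in both FNP libraries, the ligand *Bmp7* and the antagonist *Grem1*, which totalled 50.4 and 57.3 in FNP and 21.8 and 22.8 in Mx. The BMP and TGF-beta median was 0.25, close to that of the FGF genes. All 6 Hedgehog baits overlapped, with a median of −0.17.

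WNT baits were divided, 4 each way and 6 overlapping of 14, with a median of 0.01. Higher in both FNP libraries were the receptors *Fzd1* and *Ror2*, the potentiator *Rspo2* and the antagonist *Sfrp1*, and higher in both Mx libraries were the ligand *Wnt11*, the nuclear effector *Lef1* and both baits of the feedback inhibitor *Axin2*. *Wnt11* totalled 136 and 114 in FNP, 250 and 285 in Mx, 168 and 259 in Md and 110 and 173 in PA2, and had 8 Mx-side and 0 FNP-side pairs (−1.07 ± 0.31; unadjusted p = 0.0038, limma). Its stretch 183 to 266 kb away in *Uvrag* summed to 93.9 and 80.3 in FNP and 155 and 159 in Mx. In the retinoic acid group, 3 of 10 baits were higher in both FNP libraries, 2 were higher in both Mx libraries and 5 overlapped, with a median of 0.09. *Cyp26b1*, which degrades retinoic acid, totalled 358 and 306 in FNP and 187 and 245 in Mx, while *Cyp26a1*, which degrades it too, totalled 175 and 166 in FNP and 197 and 183 in Mx. *Aldh1a2*, which makes retinoic acid, totalled 80.7 and 92 in FNP and 140 and 126 in Mx. The binding proteins *Crabp1* and *Crabp2* were higher in both FNP libraries.

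Baits outside these lists were named by the size of their difference or by their number of side-specific pairs. The largest difference toward FNP was at *Inpp1*, an inositol phosphatase gene, with 120 and 123 in FNP, 0 and 0 in Mx, 0 and 111 in Md and 62.8 and 0 in PA2, so the 2 replicates of Md, and those of PA2, were themselves split between 0 and a high total. The largest toward Mx was at *Wnt10a*, a WNT ligand, with 5.68 and 5.67 in FNP and 107 and 50.8 in Mx. The baits with the most side-specific pairs had them on both sides: that of *Hjurp* and *Trpm8* had 20 FNP-side and 26 Mx-side pairs and that of *Zik1* had 14 and 25, and their totals overlapped. *Mab21l1* shares its bait with *Nbea*, in which it lies, and had the smallest p of all baits. It totalled 128 and 95.1 in FNP, 331 and 347 in Mx, 254 and 333 in Md and 283 and 257 in PA2, with 13 Mx-side pairs and 0 FNP-side pairs (−1.58; unadjusted p = 3.29e-05, adjusted p = 0.672, limma). Its stretch 232 to 306 kb away in *Dclk1* summed to 94 and 66.8 in FNP and 191 and 194 in Mx. *Peg3* and *Usp29*, imprinted neighbours that share a bait, had the longest chain of Mx-side fragments spaced by at most 25 kb, 17 in all, and totals of 339 and 310 in FNP, 817 and 692 in Mx, 391 and 295 in Md and 381 and 666 in PA2. Here the 2 Mx libraries were the highest of the 8, with PA2 replicate 2 next to them.

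On the FNP side, runs of at least 4 same-side fragments spaced by at most 25 kb were fewer, with 25 runs in 25 baits against 50 runs in 48 baits on the Mx side. The longest FNP runs held 7 fragments, at *Foxd2*, a forkhead factor, and at *Nepro*. *Foxd2* had 11 FNP-side pairs and no Mx-side pair, yet its totals of 509 and 541 in FNP and 370 and 546 in Mx overlapped. Runs were built from side-specific pairs, so the sum of a run on the opposite side is 0 by that rule. A run of 5 fragments from the bait shared by *Rsrc1* and *Shox2*, 460 to 483 kb away, summed to 32.6 and 38.6 in FNP and to 0 in all Md and PA2 libraries. *Shox2* is a homeobox factor of the palate and limb and belongs to the maxillary and first arch list. *Gdnf*, a ligand of enteric and motor neurons, had a run of 6 on the Mx side, with 44.2 and 37.3 in Mx and 11.1 to 27.0 in Md and PA2.

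Genes of other cell types that the dissection or the gate could hold were looked at through their promoter contacts, since no expression was measured. Of 6 baits of crest glia and pigment genes, 3 were higher in both FNP libraries and 0 in both Mx libraries, with a median of 0.45. That median was 0.20 without Mx replicate 2 and 0.89 without Mx replicate 1, and it turned to −0.01 over the 3 baits with at least 5 listed pairs on average and to −0.58 over the 2 left at a score threshold of 10. Their summed total was 586 and 658 in FNP, 578 and 527 in Mx, and 577 to 637 in Md and PA2. The glial factor *Sox10* was at or under 17.4 in all 8 libraries and, like the pigment factor *Mitf*, at 0 in Mx replicate 2 and Md replicate 2. *Erbb3*, a receptor of crest-derived glia, totalled 94 and 68.5 in FNP, 12.1 and 23.2 in Mx, 18 and 8.16 in Md and 11.7 and 25.9 in PA2 (1.96 ± 0.60; unadjusted p = 0.0055, limma). Of 8 neural progenitor baits, 4 were higher in both Mx libraries and 1 in both FNP libraries, with a median of −0.29. All 5 endothelial baits overlapped, and of 7 epithelial baits 2 lay apart each way. Of 6 baits of cranial crest mesenchyme markers, 2 were higher in both FNP libraries and 1 in both Mx libraries, with a median of −0.01. Whether the makeup of the sorted cells had a part in any difference above was not tested. Among 11 housekeeping baits, 2 were higher in both FNP libraries and 1 in both Mx libraries, and among 9 anterior *Hox* baits the counts were 2 and 0.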

How the data were processed

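PCHi-C was run on 14 libraries, of which 8 (FNP, Mx, Md and PA2 at E10.5, 2 each) were used and 6 were not used here. Per the study's methods, reads were mapped and filtered with HiCUP and contacts were called in each library with CHiCAGO. The deposited score is the authors' CHiCAGO score, a weighted −ln p against the background of that library, and the lists hold scores of 5 or more on GRCm38 (mm10, per the submitters' processing notes). No read depth is given, so how far depth limits the precision, beside the number of libraries, is unknown.

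Same-chromosome pairs were tested with limma 3.58.1 in R 4.3.3 (lmFit, eBayes with trend, Benjamini-Hochberg, 0.05) over 4 group means of the 8 libraries, as the asinh of the score for pairs listed in at least 4 of 8 libraries and as log2(bait total + 5) for baits with a listed pair in at least 4. The test scripts were tested on simulated data. Library values were compared with an exact permutation test in SciPy 1.17.1. Baits were named by the annotated start sites they hold. Members and gene lists were chosen with earlier results of these data known. Named genes were, per direction, the 10 baits with the largest difference of the bait total whose sides did not overlap, the 10 with the most side-specific pairs, and genes of the lists; the stretches around baits, and the runs shown, were chosen after their values were seen. Alternatives changed the filter, score scale, threshold, window, normalization, block and libraries. A member of the gene lists is not reported here.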

Additional observations from a re-analysis of the deposited data

How the results depend on the processing

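The count of pairs past the threshold was 0 and rose to 16071 with the 4 FNP and Mx libraries alone, to 2550 without the trend in eBayes, to 2569 with pairs scored as listed or not and to 6609 with pairs listed in at least 2 of 8 libraries. Between 99.2% and 100% of those calls were pairs that the listing rule itself places on 1 side. Summing other ends in 25-kb windows called 1, and so did 10-kb windows (both at *Pax3*). The 10-kb, shifted and 50-kb windows and the 25-kb windows without a library were added after seeing the data; all of them except the 10-kb windows called 0. Leaving out 1 library gave 0 pairs, and 0 to 1 baits, the 1 being *Gm17227* without FNP replicate 2 (adjusted p = 0.0392, limma), with totals of 0 and 80.9 in FNP and 106 and 101 in Mx. The cause was not tested. Every other setting run called 0 pairs and 0 baits.

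FNP-side and Mx-side pairs numbered 1141 and 1367 at a score threshold of 10, 4697 and 5389 in 25-kb windows, and 4515 and 5273 where the neighbouring fragment had to be unlisted too. Without 1 library, which loosens the rule, they ranged from 16000 to 71369 and from 17000 to 68430. At the threshold of 10, FNP-side pairs had a median distance of 383.2 kb, 8.5% beyond 2 Mb, 21.12% with a bait at the other end and 31.81% listed in no Md or PA2 library, and Mx-side pairs had 9.95%, 22.82% and 24.8% for the last 3. With equal numbers of top-scoring pairs, 31.7% of FNP-side pairs were listed in no Md or PA2 library.

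Of 38 named baits, 6 turned sign under some of 20 settings, here as log2 differences. At the threshold of 10, *Runx2* was at −0.45, *Foxd2* at −0.01, *Tfap2b* at −0.04 and *Meis2* at −0.95. Without 1 replicate the ranges were −0.06 to 0.5 for *Foxd2*, −0.14 to 0.57 for *Tfap2b*, −0.13 to 0.52 for *Meis2*, −0.26 to 0.35 for *Dlx2* and −0.8 to 0.28 for *Lhx6*. *Dlx2* was at −0.01 by the number of pairs and −0.91 by pairs within 2 Mb, and its highest value over the settings was 1.08. The cause was not tested. The median of the maxillary and first arch list stayed between −0.38 and −0.23 over 21 settings, while that of all baits ran from −0.09 to 0.07. It was not alone in keeping its sign. Medians ran from −0.41 to −0.09 for neural progenitor genes and from 0.08 to 0.26 for anterior *Hox* genes. They ran from 0.04 to 0.25 for facial signalling genes and from 0.04 to 0.35 for muscle and arch mesoderm genes. Medians of the remaining lists turned sign over these settings: −0.17 to 0.05 for frontonasal factors, −0.13 to 0.19 for crest mesenchyme genes, −0.03 to 0.21 for ventral jaw genes, −0.01 to 0.64 for housekeeping genes, −0.58 to 0.94 for glia and pigment, −0.71 to 0.48 for epithelium, −0.51 to 0.33 for endothelium and −0.14 to 0.23 for cranial crest mesenchyme markers.

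Same-numbered libraries were not paired by the labels, and their deviations correlated by 0.012 to 0.069 over pairs. With the replicate number as a block, 0 pairs and 0 baits were called (smallest adjusted p 0.406 and 0.320, limma). With 2 libraries a side, no read depth and lists cut at a score of 5, a weak contact present in both prominences can be listed on 1 side by its score alone.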
